A study of Mus musculus with 4 samples.

Results

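Retnla and 7 genes that often accompany it in alternatively activated macrophages were followed by single-cell RNA sequencing of tumor cells sorted for CD11c and MHC class II, from B16-F10 melanoma. The 8 genes were Retnla, Chil3, Mrc1, Ear2, Ccl24, F13a1, Lyz1 and Fn1, and all 8 were found by symbol among the 32285 genes of the files. They were picked with their levels in these same libraries in view, so the differences between libraries given below are descriptions of the chosen genes and support nothing by themselves.

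Alternative activation is the state that macrophages enter under the cytokines IL-4 and IL-13, which signal through the IL-4 receptor alpha chain, JAK kinases and the transcription factor STAT6. Retnla encodes the secreted protein RELM alpha (Fizz1), Chil3 the chitinase-like protein Ym1 and Mrc1 the mannose receptor CD206, and these 3 are standard readouts of that state in the mouse. The remaining members are secreted or granule proteins of monocytes and macrophages: Ccl24 (eotaxin-2) attracts eosinophils, F13a1 is the A chain of the clotting factor XIII transglutaminase, Fn1 is the matrix protein fibronectin, Lyz1 is a lysozyme and Ear2 an eosinophil-associated ribonuclease. Interferon beta is a type I interferon, a family best known for inducing antiviral genes.

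C57BL/6 mice carried B16-F10 melanoma, a mouse tumor line grown under the skin from 500000 cells, and received 1 adenovirus preparation into the tumor on day 12. Ad-Null was the empty virus, Ad-MEM40 is labelled as ISF35, a CD40 ligand construct, Ad-mIFNB carried mouse interferon beta, and Ad-COMBO was the mixture of ISF35 and mIFNB. All 4 groups therefore received adenovirus, and no library from uninjected tumors was analysed here. Each treatment had 1 library made from 3 pooled tumors, so no difference below has a replicate check and no test was run.

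The filter kept barcodes with at least 500 genes and at most 10% mitochondrial UMIs (unique molecular identifiers, each standing for 1 captured transcript), which left 8745 cells of Ad-Null, 15656 of Ad-MEM40, 1810 of Ad-mIFNB and 671 of Ad-COMBO. Their median depth ran from 9483 UMIs in Ad-MEM40 to 15277 in Ad-Null, and between 11 and 57 barcodes of each library also occurred in another library. Up to 10000 cells are stated as loaded per library, fewer than the 15656 barcodes kept in Ad-MEM40. These barcodes therefore cannot all be separate loaded cells, and a cell here means a kept barcode. Cells were assigned to a class when at least 4 of its 8 marker genes were detected and no other class reached as many, and none of the 8 genes studied was a marker. The labels call the sorted cells dendritic cells (DC), yet macrophage markers such as C1qa and Ms4a7 defined 24.3% of the cells of Ad-Null, 36.8% of Ad-MEM40, 15.1% of Ad-mIFNB and 15.9% of Ad-COMBO. Between 24.4% and 31.0% of cells per library met no gate or tied between gates. Of the macrophage-gated cells, 16.8% to 25.2% per library sat at the lowest marker number or lead that the gate allows, against 74.2% to 94.2% of the monocyte-gated cells, so the monocyte gate is loose. Levels are counts per 1000000 UMIs (CPM) of the cells summed, and all intervals are exact at 95% and cover counting error only. In such sums fewer cells of a type and less RNA per cell cannot be told apart, which is why shares of cells are given beside them. Where 4 values stand in a row they are for Ad-Null, Ad-MEM40, Ad-mIFNB, Ad-COMBO in this order. Since only the 3′ ends of transcripts were counted, levels are compared between cells and libraries and never between genes.

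The promoters of Retnla and Mrc1 are shown because these standard readouts parted from each other in the data below. They were thus picked by that result, and whether their sequences bear on it was not tested. Retnla lies at chr16:48842551-48844461 on the plus strand of GRCm38, between the resistin-like relatives Retnlb and Retnlg. The stretches are from RefSeq (GRCm38.p6), written 5′ to 3′ on the strand of the gene, and end at the base before the annotated gene. Capitals mark matches to 1 of 3 motifs searched on both strands: STAT6-type (TTC and GAA with 4 bases between), interferon regulatory factor (GAAA and GAAA with 2 between) and C/EBP (TTGC and AA with 2 between).
Retnla, chr16:48842459-48842550, plus strand: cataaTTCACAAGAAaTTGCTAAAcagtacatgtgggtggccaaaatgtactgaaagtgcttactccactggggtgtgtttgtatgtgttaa
Mrc1, chr2:14229314-14229391, plus strand: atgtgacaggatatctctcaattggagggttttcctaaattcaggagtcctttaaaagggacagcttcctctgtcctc
In the Retnla promoter the STAT6-type match covered bases -145 to -136 from the RefSeq start, and a C/EBP match followed at -134 to -127, with 1 base between them and no overlap. STAT6 and C/EBP sites in the Retnla promoter are known as the elements through which IL-4 acts on this gene. The Mrc1 window held none of the 3 motifs. Of the other members with a RefSeq promoter entry, Ear2 (-90 to -83) and Lyz1 (-209 to -202) each held a C/EBP match, and F13a1 and Chil3 held none of the 3. Over all 32544 promoters in windows of 300 bases, 6.98% held the STAT6-type motif, 3.45% the interferon regulatory factor motif and 10.8% the C/EBP motif, and a match is not evidence of binding.

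Retnla was abundant under the empty virus and nearly gone under the interferon beta viruses. Its level over all filtered cells was 206 CPM in Ad-Null (33152 UMIs), 266 in Ad-MEM40 (48314 UMIs), 13.6 in Ad-mIFNB (388 UMIs) and 0.923 in Ad-COMBO (9 UMIs). Both libraries without interferon beta were high, Ad-mIFNB was far below them and Ad-COMBO was lowest. Against Ad-Null, Retnla was 15.2 times lower in Ad-mIFNB (95% interval 13.7 to 16.8) and 223 times lower in Ad-COMBO (118 to 488), whereas it was 1.29-fold higher in Ad-MEM40 (1.27 to 1.31). Ad-COMBO was also 14.7 times below Ad-mIFNB (7.68 to 32.4), a ratio that rests on those 9 UMIs.

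**Figure D1:**
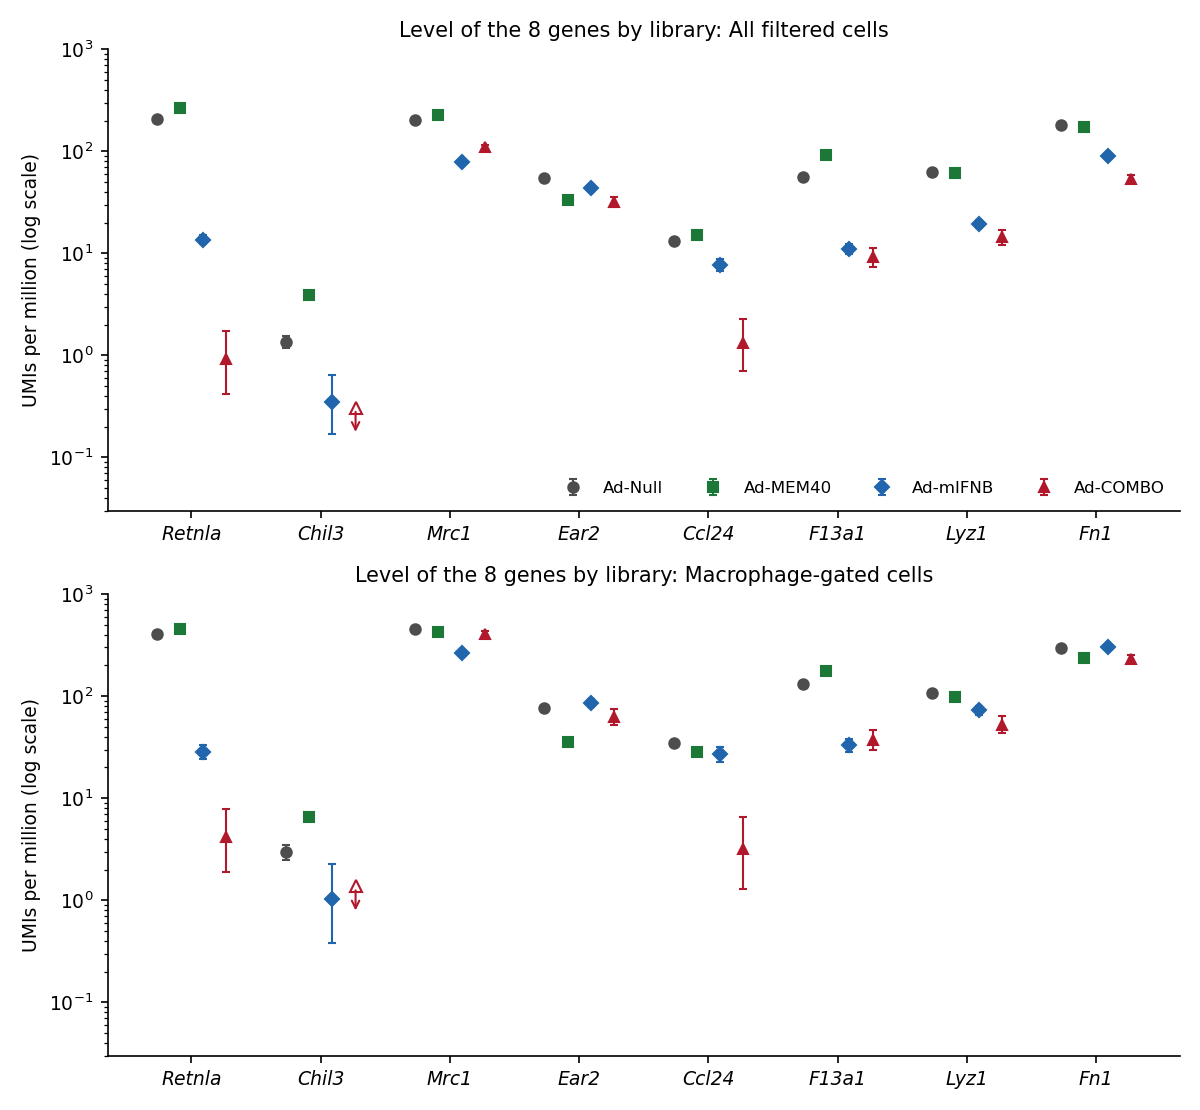
Level of the 8 genes in the 4 libraries, in CPM on a log axis, over all filtered cells (upper panel) and macrophage-gated cells (lower panel). Points are 1 library each with exact 95% Poisson intervals, and an open symbol with an arrow marks a gene with no UMI, drawn at the limit of 3 UMIs; Retnla in Ad-COMBO (0.923 and 4.12) lies far below Ad-Null (206 and 403) in both panels, while Mrc1 in macrophage-gated cells stays between 263 and 457.

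In Ad-Null and Ad-MEM40 Retnla came mostly from macrophage-gated cells. In Ad-Null its level was 403 CPM in that gate, 300 in monocyte-gated cells (interval 289 to 311), 286 in ungated cells (279 to 292), 100 in cDC2-gated cells, 39.0 in mature DC, 12.3 in plasmacytoid DC (pDC), 9.32 in cDC1 and 5.69 in melanoma cells. In this order the monocyte and ungated levels, and those of pDC (9.03 to 16.5) and cDC1 (8.26 to 10.5), have overlapping intervals, and the other neighbours do not. Macrophage-gated cells made up 24.3% of the cells and held 55.3% of the Retnla UMIs in Ad-Null, and 36.8% of the cells with 71.1% of the UMIs in Ad-MEM40. The cDC2 level of Ad-Null depends on very few cells, since 3 of 1636 held 42.3% of its Retnla UMIs. In Ad-MEM40 the order was macrophage (459), ungated (267), monocyte (170), cDC2 (113), mature DC (90.3), melanoma (40.9), pDC (20.4) and cDC1 (19.6), and 1 melanoma-gated cell held 355 of the 532 Retnla UMIs of its class. In Ad-mIFNB the macrophage gate held 42.5% of the Retnla UMIs (165 UMIs, 28.4 CPM) and the monocyte gate 39.7% (154 UMIs, 43.4 CPM), of which 1 cell had 109. All 9 Retnla UMIs of Ad-COMBO were in macrophage-gated cells.

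**Figure D2:**
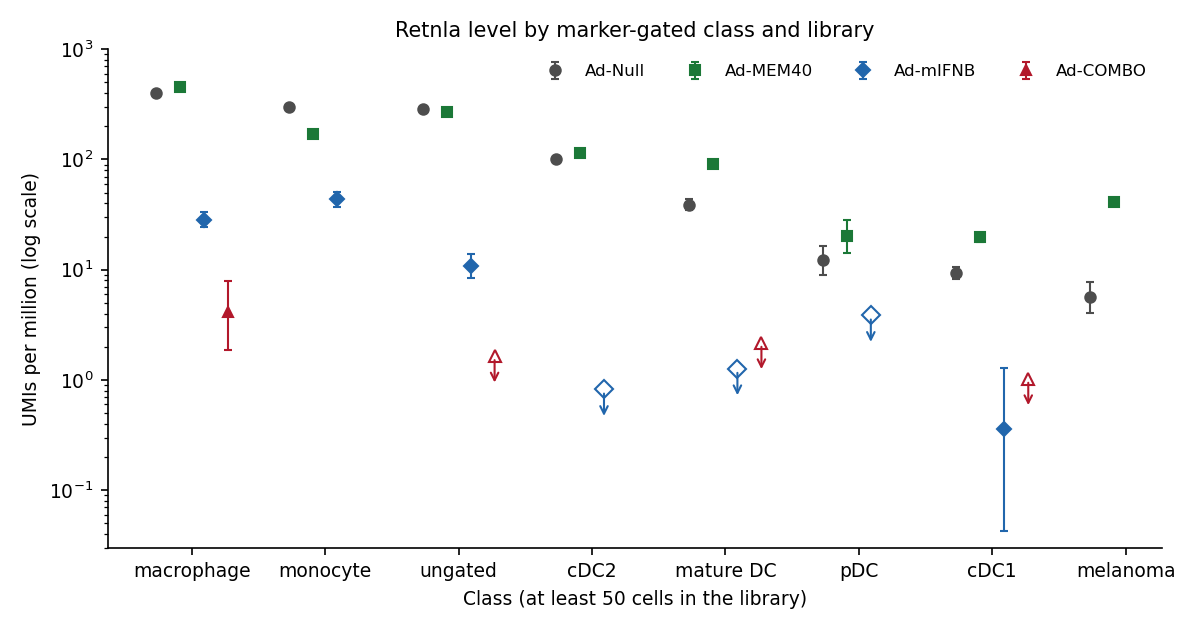
Retnla level in CPM (log axis) for each marker-gated class with at least 50 cells, by library, with exact 95% Poisson intervals. An open symbol with an arrow marks a class with no Retnla UMI, drawn at the limit of 3 UMIs; macrophage-gated cells of Ad-Null and Ad-MEM40 lie highest (403 and 459), and cDC2 and mature DC of Ad-mIFNB held no Retnla UMI.

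A Retnla UMI was also found in cells that should lack the gene, as free RNA in droplets can give. After each cell was thinned to 2000 UMIs, leaving out 359, 1200, 126 and 59 shallower cells, a Retnla UMI was found in 1.78% of cDC1 of Ad-Null (median 20243.5 UMIs before thinning) against 8.63% of macrophage-gated cells (7.45 to 9.92%; median 17772). In Ad-MEM40 the shares were 2.91% of cDC1 and 9.52% of macrophage-gated cells, with median depths of 12481 and 10920 UMIs. In Ad-mIFNB the macrophage share was 1.87% (0.608 to 4.30%) and no cDC1 had a UMI. In Ad-COMBO 0 of 100 thinned macrophage-gated cells had one, which allows a share of up to 3.00%. Without thinning, the macrophage shares were 24.4%, 21.8%, 5.49% and 3.74%, and those of cDC1 14.7%, 13.5%, 0.704% and 0%. In Ad-Null 1120 of the 1555 cells with a Retnla UMI held exactly 1.

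A small set of cells made nearly all of the Retnla. In Ad-Null 211 of 8745 cells (2.41%) held 10 or more Retnla UMIs, 95 held 100 or more and the highest held 1324. The top 87 cells, 1% of the library, held 78.7% of all Retnla UMIs. Ad-MEM40 was similar, with 364 of 15656 cells (2.32%) at 10 or more, 140 at 100 or more and a maximum of 963. In Ad-mIFNB 7 of 1810 cells (0.387%) reached 10 and 1 cell reached 100, at 109 UMIs. In Ad-COMBO 4 of 671 cells held any Retnla, all of them macrophage-gated, and the highest had 4 UMIs.

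Within the macrophage gate the share of cells with 10 or more Retnla UMIs was 5.13% in Ad-Null (109 of 2124 cells, interval 4.23 to 6.16%) and 4.21% in Ad-MEM40 (242 of 5755, 3.70 to 4.76%). It was 1.10% in Ad-mIFNB (3 of 273, 0.227 to 3.18%) and 0 of 107 in Ad-COMBO, which allows up to 2.80% (3.39% by the exact interval). The intervals of Ad-Null and Ad-mIFNB do not overlap. These shares are without thinning, and the median depth of the gate was 17772, 10920, 17726 and 14858 UMIs. The lower share of Ad-MEM40 is thus not adjusted for its lower depth. In Ad-Null 26 of 609 monocyte-gated cells (4.27%) and 15 of 1636 cDC2-gated cells (0.917%) also reached 10 UMIs, as did 2 of 1412 cDC1 and 55 ungated cells.

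**Figure D3:**
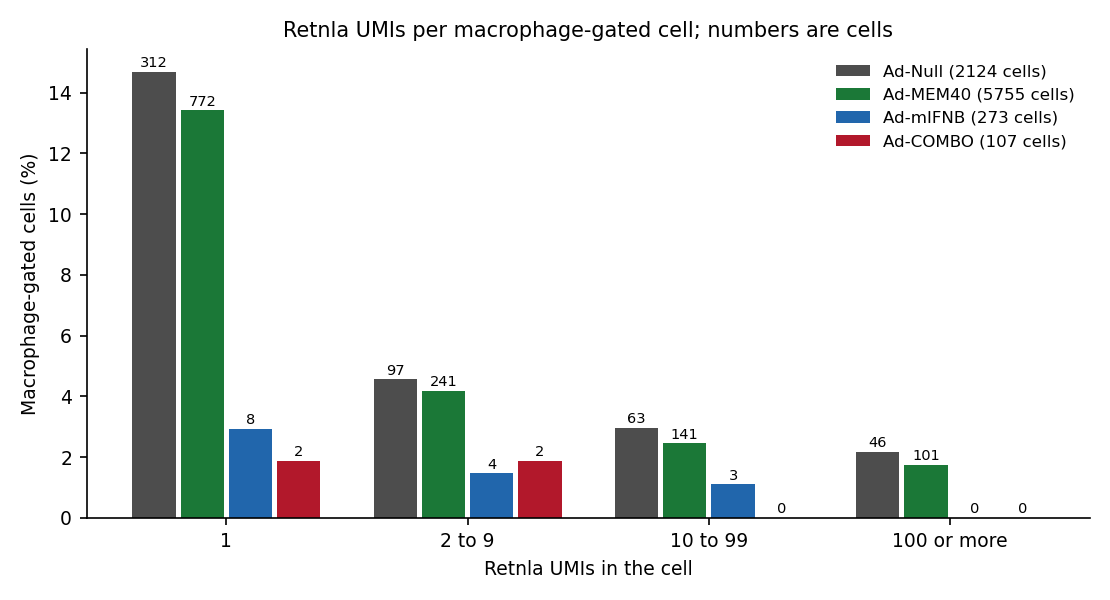
Share of macrophage-gated cells (%) with 1, 2 to 9, 10 to 99, or 100 or more Retnla UMIs in each library, without thinning, with the number of cells above each bar. Ad-Null and Ad-MEM40 had 46 and 101 cells at 100 or more, and neither Ad-mIFNB nor Ad-COMBO had any such macrophage-gated cell.

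Cells with a Retnla UMI carried 6 of the 7 other members more often than cells without, and Chil3 was the exception. A single Retnla UMI need not mean that the cell made it, as the cDC1 shares above show. In macrophage-gated cells of Ad-Null thinned to 2000 UMIs, Lyz1 was detected in 32.0% of the 178 cells with a Retnla UMI (25.2 to 39.4%) and in 2.86% of the 1885 without (2.16 to 3.72%). Ccl24 was detected in 15.7% against 1.64%, Fn1 in 55.1% against 13.5%, Ear2 in 27.0% against 6.05%, F13a1 in 36.0% against 11.2% and Mrc1 in 69.1% against 42.4%. For each of these 6 genes the intervals of the shares did not overlap. Chil3 was found in 0.562% (1 cell) against 0.584% (11 cells), so its co-detection could not be told from none at this depth.

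Ad-MEM40 gave the same picture from 518 cells with and 4922 without a Retnla UMI. Ccl24 was detected in 14.5% against 0.914%, Lyz1 in 22.6% against 3.47%, Fn1 in 47.9% against 10.2%, Ear2 in 15.3% against 3.23%, F13a1 in 37.1% against 17.8% and Mrc1 in 64.9% against 42.8%. Chil3 was again at similar shares, 1.54% (0.669 to 3.02%) against 1.36% (1.06 to 1.73%). Ad-mIFNB and Ad-COMBO had too few Retnla-positive cells for such a comparison (fewer than 50).

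**Figure D4:**
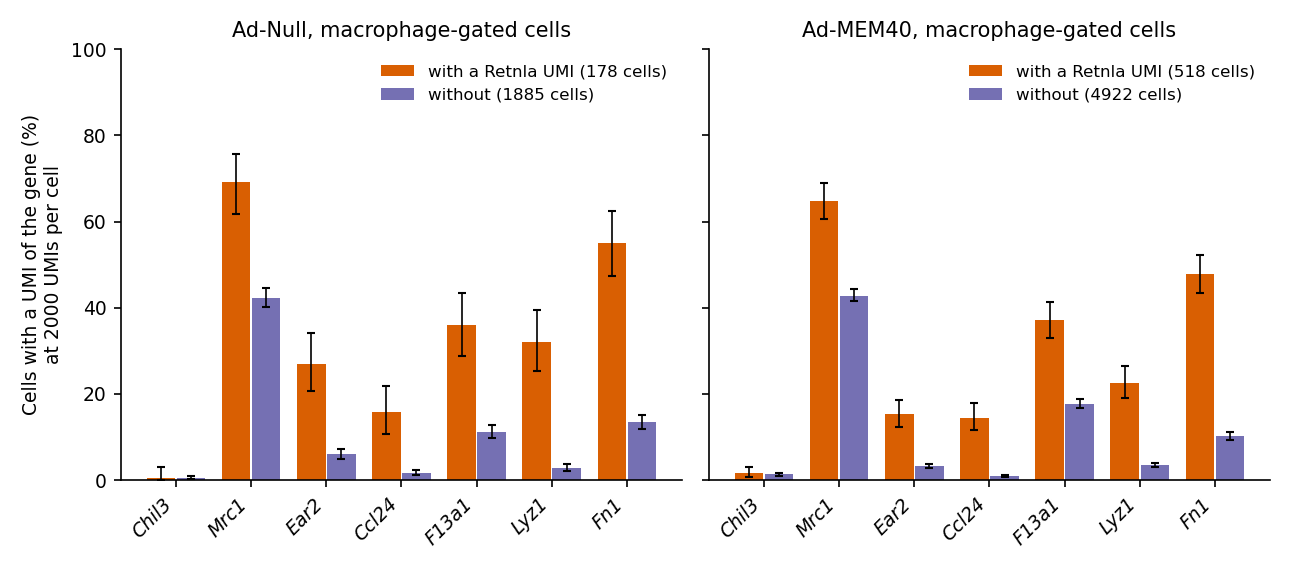
Share of macrophage-gated cells (%) with a UMI of each other member, in cells with (orange) and without (purple) a Retnla UMI, after thinning to 2000 UMIs, for Ad-Null and Ad-MEM40; bars carry Clopper-Pearson 95% intervals. Lyz1 reached 32.0% against 2.86% in Ad-Null, and Chil3 stayed under 2% on all sides.

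The cells with 10 or more Retnla UMIs showed the same company without thinning. Of the 211 such cells of Ad-Null, 209 carried Mrc1, 200 Fn1, 176 Ear2, 155 F13a1, 140 Lyz1 and 89 Ccl24. None of them carried Chil3, which allows a share of up to 1.42% (1.73% by the exact interval). Of the 211 cells 109 were macrophage-gated, 55 ungated, 26 monocyte-gated and 15 cDC2-gated. Set against macrophage-gated cells they thus differ in class and depth as well as in Retnla. They were deeper (median 28668 UMIs) than macrophage-gated cells without Retnla (16532.5), of which 79.2% carried Mrc1, 32.6% Fn1, 18.1% Ear2, 27.8% F13a1, 9.59% Lyz1, 6.54% Ccl24 and 3.18% Chil3. Chil3 alone among the 7 was not more frequent in the deeper, Retnla-rich cells. Although they were 2.41% of the library, the 211 cells held 75.9% of its Lyz1 UMIs, 58.2% of Ccl24, 46.0% of Fn1, 36.0% of Ear2, 27.9% of F13a1 and 18.2% of Mrc1. In Ad-MEM40 the 364 cells held 58.5% of the Lyz1 and 54.7% of the Ccl24 UMIs, and 4 of them carried Chil3. The 7 such cells of Ad-mIFNB all carried Mrc1, Ear2 and Fn1, and 2 of them carried Lyz1.

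Chil3, at chr3:106147554-106167564 on the minus strand, was close to the floor of the data everywhere. It had 1.37 CPM in Ad-Null (220 UMIs), 3.88 in Ad-MEM40 (706), 0.350 in Ad-mIFNB (10) and no UMI in Ad-COMBO. It was highest in Ad-MEM40, at 2.84-fold the level of Ad-Null (2.44 to 3.32), although 5 CPM added to both sides leave it inside 1.5-fold. In macrophage-gated cells its levels were 2.96, 6.55, 1.03 and 0 in the same order. Of the 60-base windows in the last 500 bases of its transcripts, 15.2% also occur in Chil4, so part of the reads may not be counted for either gene.

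Mrc1, at chr2:14229392-14332057 on the plus strand, encodes the mannose receptor, which takes up glycoproteins. Its level over all cells was 202 CPM in Ad-Null, 229 in Ad-MEM40, 78.4 in Ad-mIFNB and 109 in Ad-COMBO. Both libraries without interferon beta were above both with it. Within macrophage-gated cells it was 457, 421, 263 and 410 in the same order, so Ad-COMBO was 1.11 times below Ad-Null (1.04 to 1.19) and 1.56-fold above Ad-mIFNB (1.44 to 1.70). The share of macrophage-gated cells with Mrc1 after thinning was 44.7%, 44.9%, 25.4% and 41.0%, with Ad-mIFNB lowest (20.3 to 31.0%). Mrc1 and Retnla thus parted in Ad-COMBO, where the former was near its Ad-Null level and the latter 97.7 times lower (51.5 to 214) in the same gate.

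F13a1, at chr13:36867178-37050244 on the minus strand, was the member closest to Retnla in its pattern. It had 56.6 CPM in Ad-Null, 91.9 in Ad-MEM40, 11.1 in Ad-mIFNB and 9.23 in Ad-COMBO over all cells. Both interferon beta libraries were well below both others. In macrophage-gated cells it was 132, 177, 32.9 and 37.6, which is 4.02 times lower in Ad-mIFNB (3.48 to 4.67) and 3.52 times lower in Ad-COMBO (2.83 to 4.43) than in Ad-Null. The difference was also present in macrophage-gated cells without any Retnla UMI, at 91.1, 152, 32.4 and 36.5 CPM, where F13a1 was 2.81 times lower in Ad-mIFNB (2.41 to 3.29) and 2.50 times lower in Ad-COMBO (1.98 to 3.20). In monocyte-gated cells it was 116 in Ad-Null, 76.4 in Ad-MEM40 and 16.6 in Ad-mIFNB. The marker content of this loose gate differed between these libraries. Monocyte markers summed to 3040, 3663 and 6415 CPM and macrophage markers to 1114, 1041 and 325, and the part of this in the F13a1 values was not tested.

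Ccl24, at chr5:135569937-135573049 on the minus strand, stood apart in the mixture. Over all cells it had 13.2, 15.1 and 7.67 CPM in Ad-Null, Ad-MEM40 and Ad-mIFNB, and 1.33 in Ad-COMBO (13 UMIs). In macrophage-gated cells the levels were 34.8, 28.5, 26.9 and 3.21 (7 UMIs), so Ad-mIFNB was 1.30 times below Ad-Null (1.10 to 1.54) and Ad-COMBO 10.9 times below it (5.26 to 27.0). The 3 highest cells held 73.1% of the Ccl24 UMIs of the macrophage gate in Ad-mIFNB, and all 7 UMIs of Ad-COMBO came from 2 cells.

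Over all cells Fn1 and Lyz1 were lower in both interferon beta libraries than in Ad-Null and Ad-MEM40, and Ear2 was not. Fn1, at chr1:71585520-71653200 on the minus strand, had 179, 175, 90.8 and 54.1 CPM over all cells, and 297, 238, 305 and 230 in macrophage-gated cells. The summed macrophage level hides how few cells carry it: 3 of 107 cells held 85.9% of the Fn1 UMIs in Ad-COMBO, against 6.30% in the top 3 of 2124 cells in Ad-Null. With each macrophage-gated cell weighted equally the mean levels were 263, 204, 166 and 108, and the share of cells with Fn1 after thinning was 17.1%, 13.8%, 11.6% and 9%. By both measures the other 3 libraries were below Ad-Null. The interval of the share in Ad-Null (15.5 to 18.8%) overlaps those of Ad-mIFNB (7.996 to 16.02%) and Ad-COMBO (4.198 to 16.4%) and not that of Ad-MEM40 (12.9 to 14.7%). In monocyte-gated cells, whose marker content differed between these libraries, Fn1 was 525 in Ad-Null, 254 in Ad-MEM40 and 133 in Ad-mIFNB.

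Lyz1, at chr10:117287797-117292868 on the minus strand, had 62.1, 61.5, 19.3 and 14.5 CPM over all cells in the same order. In macrophage-gated cells it had 109, 98.96, 72.7 and 52.7, and the top 3 cells held 74.6% of these UMIs in Ad-mIFNB and 84.3% in Ad-COMBO, where the highest single cells had 251 and 53. The share of macrophage-gated cells with Lyz1 after thinning was 5.38%, 5.29%, 4.48% and 4%, with overlapping intervals. In monocyte-gated cells Lyz1 was at 130 in Ad-Null, 65.5 in Ad-MEM40 and 0.564 in Ad-mIFNB (2 UMIs), with no overlap of the intervals. The marker content of this gate also differed between these libraries. Of its 3′ windows, 11.8% also occur in Lyz2, the abundant macrophage lysozyme, which had 1520, 2582, 895 and 751 CPM over all cells.

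Ear2, at chr14:44102654-44103534 on the plus strand, was the only member lowest in Ad-MEM40 within the macrophage gate. It had 76.3 CPM there in Ad-Null, 35.5 in Ad-MEM40, 86.6 in Ad-mIFNB and 62.7 in Ad-COMBO, so Ad-MEM40 was 2.15 times below Ad-Null (2.04 to 2.26). Over all cells the levels were 54.2, 33.5, 43.5 and 31.9. The share of macrophage-gated cells with Ear2 after thinning was 7.85% in Ad-Null (6.73 to 9.10%) and 4.38% in Ad-MEM40 (3.85 to 4.95%), and these intervals do not overlap. It was also found outside the macrophage lineage, at 52.2 in cDC2 and 20.8 in cDC1 of Ad-Null. Of its 3′ windows 29.9% occur in other genes, mostly Ear1 (23.4%), so its counts are uncertain.

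**Figure D5:**
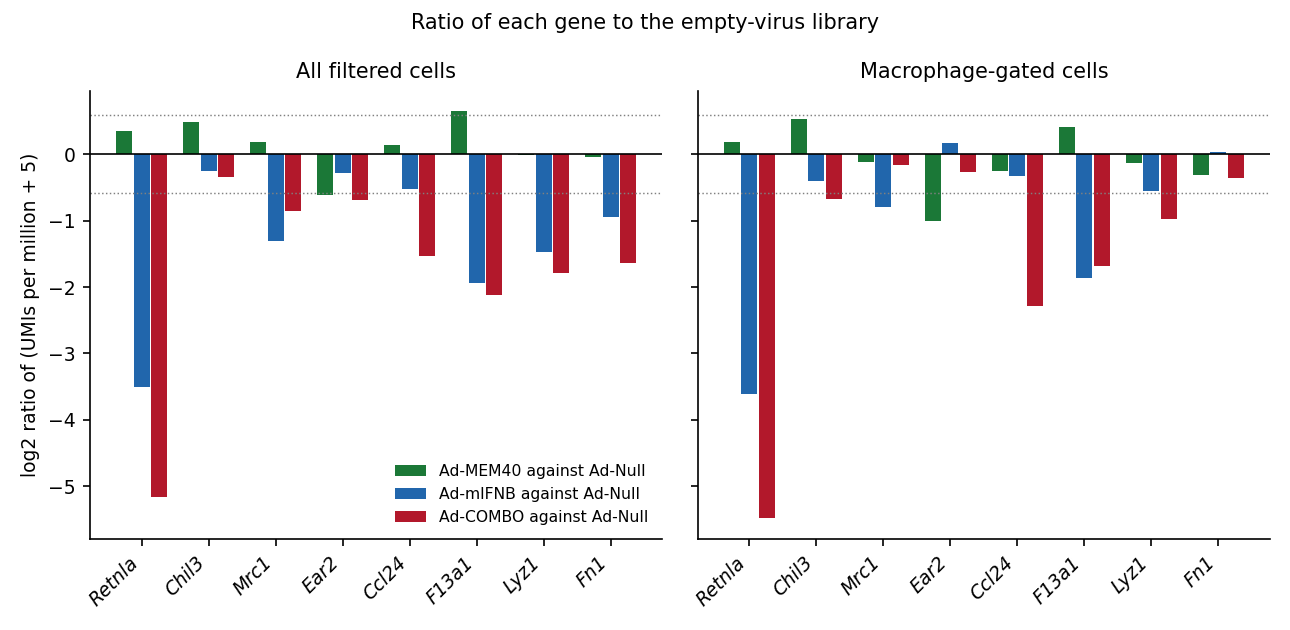
Log2 ratio of each member to Ad-Null for the other 3 libraries, with 5 CPM added to both sides, over all filtered cells (left) and macrophage-gated cells (right). Dotted lines mark 1.5-fold; Retnla is lowest in both panels (-5.16 and -5.48 in Ad-COMBO), and Mrc1, Ear2 and Fn1 of Ad-COMBO lie inside the lines only in the macrophage gate.

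Counted by a ratio of at least 1.5-fold, with 5 CPM added to both sides, 5 of the 8 members were lower in Ad-mIFNB than in Ad-Null over all cells, where 2.44% of all genes with at least 50 CPM in either library were lower and 7.62% higher. In Ad-COMBO against Ad-Null 7 of 8 were lower, with 6.26% of all genes lower and 13.4% higher, and the eighth, Chil3, had no UMI and was at least 4.45-fold lower. In Ad-MEM40 against Ad-Null 1 was lower (Ear2) and 1 higher (F13a1), with 0.98% of all genes lower and 1.99% higher. Against Ad-mIFNB, Ad-COMBO was lower in 3 of 7 measured members (Retnla, Ccl24 and Fn1), with 0.829% lower and 3.95% higher among all genes. Against Ad-MEM40 it was lower in 7 of 8, with 8.65% lower and 12.1% higher. Ad-Null is shared by 3 of these comparisons. The median log2 ratio of the 8 members was 0.16 for Ad-MEM40, -1.13 for Ad-mIFNB and -1.58 for Ad-COMBO against Ad-Null (-1.71 with Chil3 at its bound). Over all genes with at least 50 CPM it was 0.03, -0.01 and -0.04. Members and the gene lists below were counted from 20 UMIs over both libraries, so these genes are an unlike set to stand beside them. Ccl24 and Chil3 were below 50 CPM in all 4 libraries. The members were chosen on these contrasts, so nothing is read from the counts. With the gated classes that hold at least 50 cells in both libraries weighted by their Ad-Null shares, 4 of the 7 lower members of Ad-COMBO stayed past 1.5-fold (Retnla, Ccl24, F13a1 and Lyz1), and neither Ear2 nor F13a1 did in Ad-MEM40. The weighting covered 3 classes for Ad-COMBO (cDC1, mature DC and macrophage) and 7 for Ad-MEM40, so it is partial and unlike between them. For Ad-COMBO it left out ungated, cDC2-gated and monocyte-gated cells, which held 24.8%, 8.74% and 9.25% of the Retnla UMIs of Ad-Null.

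Within the macrophage gate 3 of 8 members were lower in Ad-mIFNB than in Ad-Null (Retnla, F13a1 and Mrc1), beside 2.04% of all genes lower and 6.48% higher. In Ad-COMBO 5 were lower (Retnla, Ccl24, F13a1, Lyz1 and Chil3), beside 5.51% lower and 12.1% higher, and Chil3 was at least 2.16-fold lower. In Ad-MEM40 only Ear2 was lower, beside 0.65% lower and 0.911% higher. Ad-COMBO against Ad-mIFNB had 2 of 7 lower (Retnla and Ccl24) and 1 higher (Mrc1), beside 1.99% lower and 4.11% higher. The summed macrophage markers of this gate were 8388, 10171, 10229 and 13077 CPM, all 8 detected in each library, and the monocyte markers 1064, 1199, 1740 and 1343, with 7 of 8 of the latter detected in Ad-COMBO (Hp at 0) and 8 of 8 elsewhere. Eosinophil markers, of interest because eosinophils can express Ear genes, summed to between 74.2 and 144, with 3 to 5 of 8 at 0 and Epx, Il5ra and Ear6 at 0 in all 4 libraries. The part of these shifts in the results was not tested.

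Over all cells the receptor and signaling genes upstream of alternative activation stayed inside 1.5-fold. Of 7 genes (Il4ra, Il13ra1, Il2rg, Jak1, Jak3, Tyk2 and Stat6), 0 passed 1.5-fold in either direction over all cells in any of the 5 comparisons. Over these comparisons 0.829% to 8.65% of all genes with at least 50 CPM were lower and 1.99% to 13.4% higher. With 7 genes a count of 0 is near such shares, so nothing is read from it. Il4ra, the IL-4 receptor alpha chain, had 90.8 CPM in Ad-Null, 112 in Ad-MEM40, 85.0 in Ad-mIFNB and 109 in Ad-COMBO, and Stat6 had 50.1, 54.4, 52.3 and 61.9. In macrophage-gated cells 1 of the 7 was higher in Ad-COMBO than in Ad-Null (Il13ra1, 37.1 against 21.4 CPM) and 1 was higher in Ad-COMBO than in Ad-mIFNB (Il4ra). Of all genes with at least 50 CPM in that gate, 12.1% and 4.11% were higher in these comparisons, and Il13ra1 was below that level in the former. Il4ra was 118, 142, 88.5 and 162 there. Of 7 transcription factors tied to the state (Irf4, Klf4, Pparg, Ppargc1b, Egr2, Myc and Cebpb), 0 passed in Ad-MEM40 or Ad-mIFNB over all cells and 1 was lower in Ad-COMBO against Ad-Null. The log2 medians of both lists were 0.26 and -0.08 in that last comparison. In macrophage-gated cells 1 of the 7 factors was lower in Ad-mIFNB and 1 in Ad-COMBO against Ad-Null, and 0 passed in Ad-MEM40. In the same gate 1 factor was higher in Ad-COMBO than in Ad-mIFNB. Against Ad-MEM40, 1 was higher and 1 lower in Ad-COMBO. With 7 genes nothing is read from these counts either. Il4ra, Il13ra1 and Stat6 here, and Arg1 below, were named after their values were seen.

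Other targets of alternative activation did not follow Retnla as a group. Of 17 measured targets, 0 were higher and 2 lower in Ad-mIFNB against Ad-Null over all cells, 7 higher and 3 lower in Ad-COMBO, and 4 higher and 2 lower in Ad-MEM40. Among all genes with at least 50 CPM the shares were 7.62% and 2.44%, 13.4% and 6.26%, and 1.99% and 0.98% in this order. In macrophage-gated cells Arg1, the enzyme that splits arginine into ornithine and urea, had 309, 287, 403 and 301 CPM, all inside 1.5-fold of Ad-Null. The chemokine gene Ccl17 went from 37.7 in Ad-Null to 3.21 in Ad-COMBO, and the lectin Mgl2, which is also a cDC2 gating marker, from 232 to 86.6. In the other direction the fatty acid binding protein gene Fabp4 was 23.4 in Ad-Null and 90.2 in Ad-COMBO, and the elastase gene Mmp12 was 490 in Ad-Null and 1071 in Ad-mIFNB. The reductase gene Cbr2 was 37.6 in Ad-Null, 90.0 in Ad-MEM40 and 18.6 in Ad-mIFNB. Of the 10 relatives of the members, only Lyz2 and Retn had 20 or more UMIs in the comparisons over all cells.

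Classical activation genes, the usual counterpart, went both ways in Ad-mIFNB and were mostly higher in Ad-COMBO. Of 10, 4 were higher and 3 lower in Ad-mIFNB than in Ad-Null over all cells, and 6 higher and 1 lower in Ad-COMBO, with a median log2 ratio of 1.07. Among all genes with at least 50 CPM, 7.62% were higher and 2.44% lower in Ad-mIFNB, and 13.4% and 6.26% in Ad-COMBO. In macrophage-gated cells 2 were higher and 2 lower in Ad-mIFNB, and 5 higher and 2 lower in Ad-COMBO. The shares of all such genes in that gate were 6.48% and 2.04%, and 12.1% and 5.51%. In that gate Nos2, the inducible nitric oxide synthase, had 7.79 CPM in Ad-Null and 51.3 in Ad-COMBO, and the interferon-induced chemokine gene Cxcl10 had 360 and 964. Cxcl9 went the other way, from 617 in Ad-Null to 88.0 in Ad-mIFNB and 144 in Ad-COMBO.

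Across 23 class-by-library profiles of at least 50 cells, the genes whose log2 level tracked Retnla most closely among 5152 were Nin (Pearson r = 0.82), Plxdc2 (0.82), Nfe2l2 (0.78), Klf7 (0.77), Adam15 (0.76), Cxcl2 (0.75), Clec4e (0.75), Sde2 (0.75), Fcrls (0.74) and Clec5a (0.73). Among the members F13a1 (0.84) was above all of them, followed by Lyz1 (0.76), Chil3 (0.75), Fn1 (0.74), Mrc1 (0.74), Ccl24 (0.70) and Ear2 (0.53). The profiles share libraries, depth and free RNA, and the values are descriptions. None of these 10 genes shared the size of the Retnla difference. In macrophage-gated cells Nfe2l2, the transcription factor NRF2, had 213, 201, 162 and 168 CPM, and Clec5a, an activating lectin, 22.4, 22.1, 25.3 and 22.9.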

How the data were processed

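The deposited files hold UMI counts per gene and cell barcode in 1 matrix for each library of 10x 3′ single-cell RNA sequencing. Per the submitters' processing notes the authors used Cell Ranger 3.0 and Seurat 4.0 with the mm10 build, whereas the matrix header, per the file headers, names Cell Ranger 6.0.0. Barcodes with at least 500 genes and at most 10% mitochondrial UMIs were kept. Cells were gated by 15 lists of 8 markers (at least 4 detected, at least 1 more than any other list), with thresholds set after depth, free RNA and values of these data were seen. Doublets were kept. As an alternative 1459, 2278, 3 and 3 barcodes were left out by Scrublet (scanpy 1.11.5), at its automatic threshold except in Ad-MEM40, where that threshold marked 0 and the highest scores up to the expected share (14.5%) were taken. Counts were summed per library and class and compared as log2 ratios after adding 5 CPM, with 1.5-fold as the size named and at least 20 UMIs over both libraries. Intervals are Poisson for levels, Clopper-Pearson for shares and conditional binomial for ratios, all at 95%. A count of 0 was given the limit of 3 UMIs. Shares of cells were computed after thinning each cell to 2000 UMIs.

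The 8 members and all gene lists were chosen with earlier results of these data known. Named besides the members were the 3 highest and 3 lowest list genes of each comparison, or some of them, relatives compared by sequence, and the 10 genes most correlated with Retnla. Of 52 list genes 51 were found. Promoters came from the RefSeq table (GRCm38.p6) for 6 of 8 members. The result of 1 further motif search is not reported here. Tested on simulated counts, the ratio step recovered all 100 genes planted at 2- or 4-fold in each of the 5 comparisons, run on 2945, 2932, 2933, 2971 and 3006 genes, with 0 false calls. The intervals held 184 to 194 of the 200 planted ratios. These counts were Poisson draws per library from a pooled profile, with planted genes of at least 50 CPM and no single cells. The check covers the arithmetic only, and neither genes carried by few cells, such as Retnla, nor genes at low levels. Python 3.11.15, numpy 2.4.6, scipy 1.17.1 and pandas 2.3.3 were used. Alternatives covered the cell filter, doublets, shared barcodes, the gates, thinning, the added CPM and the weighting of cells and classes.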

Additional observations from a re-analysis of the deposited data

Results flagged for a closer look

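4 results had ratios of opposite sign for ISF35 without and with interferon beta, each with a counting interval that leaves out equality, which is what brought them here. F13a1 over all filtered cells also had opposite signs (0.65 and -0.18), but the interval of its second ratio (0.652 to 1.06-fold) includes 1. With 1 library per arm the difference between the arms was not tested. These intervals treat UMIs as independent and are too narrow where few cells hold them. The 388 Retnla UMIs of Ad-mIFNB lay in 26 cells, and the 13 Ccl24 UMIs of Ad-COMBO in 4. Retnla over all filtered cells had a log2 ratio of 0.36 for Ad-MEM40 against Ad-Null and -1.65 for Ad-COMBO against Ad-mIFNB, a gap of 2.01. In macrophage-gated cells the values for Retnla were 0.19 and -1.87, a gap of 2.06. Ccl24 over all filtered cells had 0.14 and -1.001, a gap of 1.14. Mrc1 in macrophage-gated cells went the other way, at -0.12 and 0.63, a gap of -0.75. The Ad-COMBO side of the Retnla gaps rests on 9 UMIs and that of Ccl24 on 13. The opposite signs of Ccl24 depend on the processing, as its first ratio ran from -0.16 to 0.43 over the alternatives. In macrophage-gated cells Ccl24 had the same sign in both, at -0.25 and -1.96.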

How the results depend on the processing

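No paired analysis was possible because each treatment had 1 library, and for the same reason no replicate could be left out. No called direction reversed. Of the main results' alternative values 111 stayed within their counting interval or count and 60 moved, and of the values for single genes 228 and 180 did. The cause was not tested. Over all cells the Retnla log2 ratio of Ad-MEM40 to Ad-Null became 0.33 without doublets, 0.39 as the mean over cells, 0.34 without shared barcodes and 0.11 with classes weighted. Ad-mIFNB to Ad-Null became -3.69 without doublets and -3.83 with 1 CPM added, after thinning and as the mean over cells. Ad-COMBO to Ad-Null became -5.34 without doublets, -6.75 with 1 CPM and -4.89 as the mean over cells. Ad-COMBO to Ad-mIFNB became -2.92 with 1 CPM, -1.17 after thinning and -1.06 as the mean over cells. Ad-COMBO to Ad-MEM40 became -5.66, -7.12, -5.29 and -5.21 without doublets, with 1 CPM, as the mean over cells and with classes weighted.

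Members lower in Ad-MEM40 than in Ad-Null numbered 0 as the mean over cells and with classes weighted, and members higher 2 with 1 CPM and 0 with classes weighted. In Ad-COMBO against Ad-Null 4 were lower with classes weighted, which covers only 3 classes in each comparison of Ad-COMBO. Against Ad-mIFNB 1 was higher after thinning, as the mean over cells and with classes weighted.

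In macrophage-gated cells Ad-MEM40 to Ad-Null became 0.10 without Ly6c2 and Ms4a4c in the monocyte gate, 0.057 without doublets, 0.23 after thinning and 0.28 with a gate lead of 2 markers, an alternative chosen after seeing the data. Ad-mIFNB to Ad-Null became -3.36, -4.08 and -3.23 under the first 3 of these. Ad-COMBO to Ad-Null became -5.95 without doublets, -6.03 after thinning and -6.30 with 1 CPM. After thinning and with 1 CPM, Ad-COMBO to Ad-mIFNB became -2.80 and -2.52, and Ad-COMBO to Ad-MEM40 -6.25 and -6.49. In monocyte-gated cells Ad-MEM40 to Ad-Null became -1.07 after thinning, and Ad-mIFNB to Ad-Null -4.49 after thinning and -1.93 with the lead of 2. In cDC2-gated cells Ad-MEM40 to Ad-Null, inside 1.5-fold, became -0.075 without Ly6c2 and Ms4a4c, 0.27 without doublets and 0.32 with the lead of 2. Ad-mIFNB to Ad-Null there became -4.54 without Ly6c2 and Ms4a4c, -3.99 after thinning and -6.66 with 1 CPM.

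The share of all cells with a Retnla UMI was 17.8%, 17.5% and 1.44% without thinning in Ad-Null, Ad-MEM40, Ad-mIFNB, and 3.89% and 5.01% in the former pair at 1000 UMIs. In macrophage-gated cells it was 24.4%, 21.8%, 5.49% and 3.74% without thinning over the 4 libraries, and 6.80% and 6.82% in Ad-Null and Ad-MEM40 at 1000 UMIs. Ad-COMBO had 107 macrophage-gated cells, and Ad-MEM40 the lowest median depth, 9483 UMIs.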

Other observations

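The levels of the members in macrophage-gated cells without a Retnla UMI add values that the comparisons above leave out. There were 1606 such cells in Ad-Null, 4500 in Ad-MEM40, 258 in Ad-mIFNB and 103 in Ad-COMBO, and values below follow this order. Mrc1 had 379, 367, 240 and 409 CPM in them, and Fn1 had 159, 98.3, 234 and 250. Lyz1 had 18.8, 33.2, 69.9 and 55.4, so it was higher in the interferon beta libraries by this sum, yet the top 3 cells held 82.8% of those UMIs in Ad-mIFNB and 87.4% in Ad-COMBO. The share of these cells with Lyz1 was 9.59%, 9.27%, 9.69% and 12.6%. Ccl24 had 12.9, 11.6 and 10.9 in the first 3 libraries and 3.50 (7 UMIs) in Ad-COMBO. Ear2 had 45.9, 21.7, 72.4 and 39.5.

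Monocyte-gated cells of Ad-mIFNB held 154 Retnla UMIs in 4 of 241 cells, of which 1 cell had 109. Lyz1 in the same gate had 2 UMIs in all, against 1326 UMIs in 609 cells of Ad-Null, where the marker content of the gate differed.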
